A study of Mus musculus with 18 samples.

Results

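The p200 family, also called the PYHIN family, consists of interferon-inducible mouse genes whose proteins carry a HIN domain that binds DNA and, in most cases, a pyrin domain that binds other pyrin domains. Its members were selected by symbol and are *Aim2*, *Ifi203*, *Ifi204*, *Ifi205*, *Ifi207*, *Ifi208*, *Ifi209*, *Ifi211*, *Ifi213* and *Mndal*, which makes 10 of the 62197 genes in the deposited table. All 10 were among the 17875 genes tested, those that reached 10 normalized counts in 3 or more libraries. *Ifi208* passed this filter only through libraries of confined cPLA_2_ WT and LPS-treated cells, so it had to differ between groups. AIM2 binds DNA in the cytosol and assembles an inflammasome with the adaptor ASC, whereas p204, the product of *Ifi204*, has been placed upstream of the adaptor STING and of interferon-β. Type I interferon acts through its receptor and JAK kinases on interferon-stimulated response elements, and in dendritic cells (DCs) LPS induces interferon-β through TLR4. Several family members are themselves targets of this pathway.

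The study asked how a change of cell shape alters the state of DCs and whether this needs the lipase cPLA_2_, encoded by *Pla2g4a*. DCs were grown from mouse bone marrow for 10 days with supernatant of J558 cells that contains GM-CSF, and bulk RNA-seq was performed on 3 libraries for each of 6 groups. Nonconfined cPLA_2_ WT and cPLA_2_ KO DCs were untreated and were collected when the culture ended, and confined cPLA_2_ WT and cPLA_2_ KO DCs were held at a height of 3 µm and collected 4 h after confinement. The LPS groups, labelled cPLA_2_ WT and cPLA_2_ KO, received 100 ng ml-1 LPS for 30 min by the labels (the study's methods give a slightly shorter time), were washed and were collected on the following day. The cPLA_2_ KO mice carry a floxed *Pla2g4a* and Cre driven by *Itgax* (CD11c), so deletion is restricted to cells that have switched on *Itgax*, and a GM-CSF culture also holds cells other than DCs. Because the time of collection differs with the treatment, time and treatment cannot be told apart. The study calls its libraries biological replicates, while the labels do not say which mice or cultures they came from, so p-values measure the spread between these libraries, which may in part be technical. Its methods say that granulocytes and macrophages also arise in this culture and that the semiadherent cells were taken to leave both behind.

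The libraries held between 33027230 and 61300021 reads on genes, and values are normalized counts, meaning read counts divided by a size factor for each library. *Pla2g4a* (identifier GSMG0002495, chr1:149705372-149837041 of GRCm39, minus strand) was used to check the genotype labels. It had 697, 686 and 770.4 normalized counts in the nonconfined cPLA_2_ WT libraries and 548, 542 and 533 in the nonconfined cPLA_2_ KO libraries. In confined cells it had 1369, 1430.3 and 1321 in cPLA_2_ WT and 923, 871 and 919.5 in cPLA_2_ KO libraries. The cPLA_2_ KO libraries were below the cPLA_2_ WT libraries in both treatments, without overlap. The libraries labelled LPS cPLA_2_ WT had 1005, 969 and 967 and those labelled LPS cPLA_2_ KO had 1065, 1032 and 1028, so here the cPLA_2_ KO label did not go with a lower level. The reads of 4 Y-linked genes summed to 2329.9, 3.66 and 1271 in the libraries labelled LPS cPLA_2_ WT and to 4.24, 2589 and 1426 in those labelled LPS cPLA_2_ KO. Replicate 2 of the former and replicate 1 of the latter thus lack Y-linked reads, and neither label holds libraries of 1 kind. By a chi-square of read counts over genes, divided by its degrees of freedom, these 2 libraries were alike at 5.17, and replicates 3 of both labels at 6.21, whereas LPS libraries with the same label were at 9.82 or more, where a larger value is a larger difference. In nonconfined and confined cells every cPLA_2_ KO library had Y-linked reads, between 1718 and 1868, and no cPLA_2_ WT library had more than 4.57. The female transcript *Xist* ran from 22734 to 33681 in these cPLA_2_ WT and from 12153 to 24835 in these cPLA_2_ KO libraries. Genotype thus cannot be told apart from the source animals or their sex. For these reasons the LPS libraries were pooled over their genotype labels in every test against other groups, while levels are given by label.

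The summed level of the 10 members was 14126, 14555 and 14416 normalized counts in the nonconfined cPLA_2_ WT libraries and 13578, 14079 and 13945 in the nonconfined cPLA_2_ KO libraries. It was 41643, 41357 and 40543 in confined cPLA_2_ WT and 7084, 6674 and 6414 in confined cPLA_2_ KO libraries. In the LPS libraries it was 108032, 114993 and 112402 under the cPLA_2_ WT label and 115177, 115093 and 112959 under the cPLA_2_ KO label. Confined cPLA_2_ KO libraries were thus the lowest and LPS libraries the highest, confined cPLA_2_ WT libraries lay between nonconfined and LPS libraries, and the libraries of these kinds did not overlap. As a share of all normalized counts the members took 0.0412, 0.0428 and 0.0423% in nonconfined cPLA_2_ WT, 0.102, 0.105 and 0.102% in confined cPLA_2_ WT and 0.0195, 0.0190 and 0.0179% in confined cPLA_2_ KO libraries, which gives the same order. In bulk libraries such as these, fewer cells that express a gene and less of its RNA per cell cannot be told apart.

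**Figure D1:**
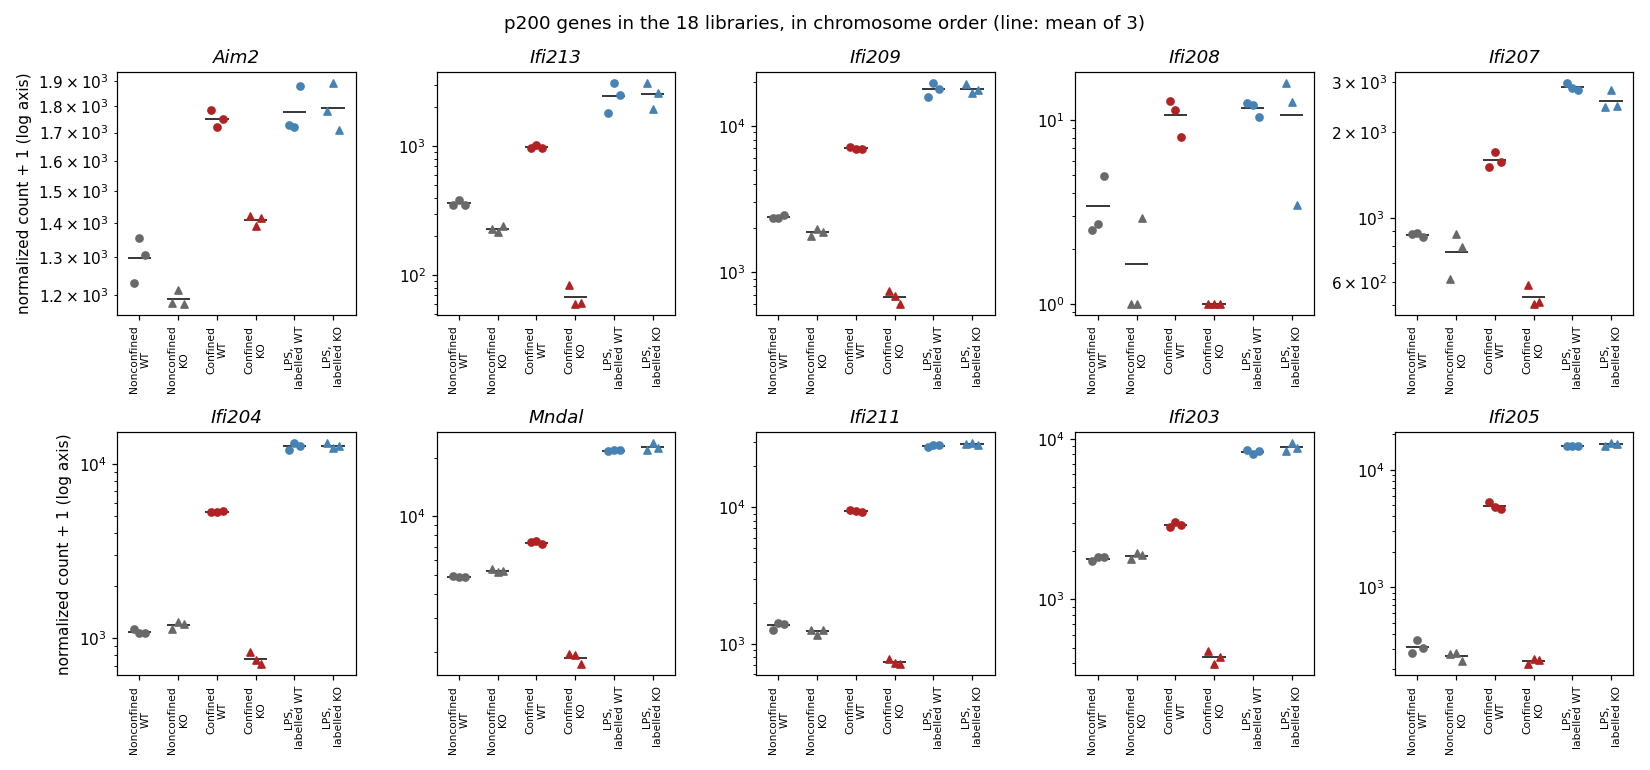
Normalized counts plus 1 of the 10 members in each library, on log axes, for nonconfined, confined and LPS libraries; circles are cPLA_2_ WT and triangles cPLA_2_ KO labels, and lines are the mean of 3 libraries. For *Ifi205* the confined cPLA_2_ WT libraries sit between 4662 and 5271, above all nonconfined and all confined cPLA_2_ KO libraries.

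Levels were compared between genes per kilobase of merged exons, as the mean ± SD of 3 libraries. In nonconfined cPLA_2_ WT DCs *Mndal* was the most abundant member at 1196 ± 5.04 normalized counts per kilobase, followed by *Ifi211* at 724 ± 44.6 and *Ifi209* at 649 ± 15.3. Below these came *Ifi204*, *Ifi207*, *Ifi203*, *Aim2*, *Ifi205*, *Ifi213* and *Ifi208*, and the neighbours *Ifi207* and *Ifi203* did not differ beyond their spread. Nonconfined cPLA_2_ KO DCs had the same order apart from *Ifi203* and *Ifi207*, which traded places, and there *Ifi207* did not differ beyond the spread from *Ifi203* or *Aim2*. In confined cPLA_2_ WT DCs *Ifi211* led at 4996 ± 97.7 per kilobase, then *Ifi209*, *Mndal*, *Ifi204*, *Ifi205*, *Ifi207*, *Ifi203*, *Aim2*, *Ifi213* and *Ifi208*, with every neighbour apart by more than the SDs. In confined cPLA_2_ KO DCs *Mndal* led at 457 ± 29.7 per kilobase before *Ifi211* at 392 ± 19.2, and *Aim2* came next at 214 ± 2.40. They were followed by *Ifi204*, *Ifi209*, *Ifi207*, *Ifi203*, *Ifi205* and *Ifi213*, with *Ifi208* at 0, and *Aim2* and *Ifi204*, *Ifi204* and *Ifi209*, and *Ifi203* and *Ifi205* did not differ beyond their spread. Under both LPS labels *Ifi211* led, at 15061 ± 216 and 15435 ± 259.7 per kilobase, ahead of *Mndal*, *Ifi209*, *Ifi205*, *Ifi204*, *Ifi203* and *Ifi207*. *Aim2* and *Ifi213* came after these without differing beyond their spread, *Ifi208* was last, and *Mndal* and *Ifi209* overlapped under the cPLA_2_ WT label. With the length of the longest transcript in place of merged exons the order changed in every group. *Ifi209* then came after *Mndal* and *Ifi204* in confined cPLA_2_ WT DCs, where *Ifi207* came after *Ifi203* and *Aim2*, and *Ifi204* moved ahead of *Ifi205* and *Ifi209* under both LPS labels. *Aim2* stood above *Ifi203* and *Ifi207* in nonconfined cPLA_2_ WT DCs, above *Ifi207* in nonconfined cPLA_2_ KO DCs and above *Ifi211* in confined cPLA_2_ KO DCs.

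*Aim2* (GSMG0001191, chr1:173248170-173293606, plus strand), the inflammasome sensor, had 1231, 1354 and 1307 normalized counts in nonconfined cPLA_2_ WT and 1178, 1211 and 1175 in nonconfined cPLA_2_ KO libraries. It had 1785, 1718 and 1748 in confined cPLA_2_ WT and 1421, 1390.5 and 1413 in confined cPLA_2_ KO libraries. Under the LPS labels it had 1725, 1719.9 and 1879 (cPLA_2_ WT) and 1778, 1890.2 and 1710.0 (cPLA_2_ KO). Every confined library was above every nonconfined library, and confined cPLA_2_ KO libraries lay below confined cPLA_2_ WT libraries. Confinement raised *Aim2* in cPLA_2_ WT DCs by 0.43 (SE 0.054, limma adjusted p = 5.87e-07) on the log2 scale and in cPLA_2_ KO cells by 0.25 (SE 0.054, limma adjusted p = 0.000825), where SE is the standard error. Over the alternatives the rise ran from 0.21 to 0.46 in cPLA_2_ WT and from 0.21 to 0.26 in cPLA_2_ KO cells. It was the only member that rose with confinement in cPLA_2_ KO DCs. The difference between these changes was -0.19 (95% confidence interval -0.35 to -0.028, adjusted p = 0.0781 from limma) and missed the threshold, while it passed with TMM scaling (adjusted p = 0.0363 from limma) and with edgeR (0.038), in a range of 0.0363 to 0.994 over the alternatives, and was 0.00091 with the same total per library. LPS libraries were above nonconfined libraries by 0.52 (SE 0.038, limma adjusted p = 5.63e-11), a difference that shrank to 0.025 with the same total per library, a scaling that moves the median of all genes to -0.46.

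*Ifi204* (GSMG0002789, chr1:173574856-173594510, minus strand) had 1132, 1079.5 and 1071 normalized counts in nonconfined cPLA_2_ WT and 1127, 1246 and 1210.2 in nonconfined cPLA_2_ KO libraries. Confined libraries had 5286, 5274 and 5342 in cPLA_2_ WT and 831, 753 and 711 in cPLA_2_ KO cells. LPS libraries had 12083, 13138 and 12632 under the cPLA_2_ WT label and 13087, 12334 and 12655 under the cPLA_2_ KO label. Confined cPLA_2_ WT libraries were above and confined cPLA_2_ KO libraries below all nonconfined libraries. *Ifi204* rose with confinement in cPLA_2_ WT DCs by 2.28 (SE 0.055, limma adjusted p = 1.02e-18), a 4.84-fold change on the scale of log2(normalized count + 1). In cPLA_2_ KO DCs it changed by -0.64 (SE 0.055, limma adjusted p = 4.23e-09), and the interaction was -2.92 (SE 0.078).

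*Ifi205* (GSMG0002794, chr1:173839557-173859321, minus strand) encodes p205, a nuclear p200 protein reported to regulate transcription of the gene for ASC. It had 274, 356 and 304 normalized counts in nonconfined cPLA_2_ WT and 270.3, 274 and 235 in nonconfined cPLA_2_ KO libraries. Confined cPLA_2_ WT libraries had 5271, 4849 and 4662 and confined cPLA_2_ KO libraries 220.1, 243 and 241. LPS libraries had 15891, 15967 and 15865 under the cPLA_2_ WT label and 16040.1, 16805 and 16456 under the cPLA_2_ KO label. The confined cPLA_2_ WT libraries stood far above all nonconfined libraries, and the confined cPLA_2_ KO libraries overlapped the nonconfined cPLA_2_ KO libraries. Of the members, *Ifi205* had the largest rise with confinement in cPLA_2_ WT DCs, 3.99 (SE 0.078, limma adjusted p = 2.88e-20). In cPLA_2_ KO DCs its change was -0.14 (95% confidence interval -0.31 to 0.020, adjusted p = 0.143 from limma), which missed the threshold and passed it without nonconfined cPLA_2_ KO replicate 3 (-0.21, adjusted p = 0.044, in a range of 0.044 to 0.383 over the alternatives). The interaction, -4.13 (SE 0.11, limma adjusted p = 1.78e-17), was the largest of the family, and confined cPLA_2_ KO DCs were 20.9-fold below confined cPLA_2_ WT DCs.

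*Ifi203* (GSMG0002792, chr1:173747971-173770240, minus strand) had 1723, 1825 and 1823 normalized counts in nonconfined cPLA_2_ WT and 1778, 1933 and 1894 in nonconfined cPLA_2_ KO libraries, and 2801, 3021 and 2903 in confined cPLA_2_ WT and 472, 392 and 437 in confined cPLA_2_ KO libraries. Under the LPS labels it had 8487, 8058 and 8430.1 (cPLA_2_ WT) and 8339, 9393 and 8763 (cPLA_2_ KO). Confined cPLA_2_ WT libraries were above and all confined cPLA_2_ KO libraries below all nonconfined libraries. The rise in cPLA_2_ WT DCs was 0.70 (SE 0.061, limma adjusted p = 2.88e-09), and the fall in cPLA_2_ KO DCs, -2.11 (SE 0.061, limma adjusted p = 1.58e-16), was the largest of the members. *Mndal* (GSMG0002791, chr1:173684787-173707754, minus strand), named for its likeness to the human myeloid nuclear differentiation antigen, had 4926, 4906 and 4885 normalized counts in nonconfined cPLA_2_ WT and 5366, 5181 and 5254 in nonconfined cPLA_2_ KO libraries. It had 7343, 7459 and 7193 in confined cPLA_2_ WT and 1961, 1930.1 and 1736 in confined cPLA_2_ KO libraries, and 21585, 21924 and 21937 and 22014, 23805 and 22377 under the LPS cPLA_2_ WT and cPLA_2_ KO labels. Its confined libraries parted in the same way, above all nonconfined libraries in cPLA_2_ WT and below them in cPLA_2_ KO DCs. *Mndal* rose by 0.58 (SE 0.045, limma adjusted p = 3.41e-10) in cPLA_2_ WT and changed by -1.49 (SE 0.045, limma adjusted p = 2.25e-16) in cPLA_2_ KO DCs. For *Ifi203* and *Mndal* the change in cPLA_2_ KO DCs was thus larger in size than that in cPLA_2_ WT DCs, whereas for *Ifi205*, *Ifi211* and *Ifi204* it was smaller. *Ifi213* went the way of *Ifi203* and *Mndal* by less, at -1.76 (SE 0.16) in cPLA_2_ KO and 1.46 (SE 0.16) in cPLA_2_ WT DCs.

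The roles of *Ifi207*, *Ifi208*, *Ifi209*, *Ifi211* and *Ifi213* are less well described. *Ifi211* (GSMG0002790, chr1:173723907-173740612, minus strand) had 1267, 1429 and 1385 and 1261, 1166 and 1263 normalized counts in nonconfined cPLA_2_ WT and cPLA_2_ KO libraries, 9569, 9378 and 9202 and 777, 726 and 707 in confined cPLA_2_ WT and cPLA_2_ KO libraries, and 27835, 28627 and 28391 and 28971, 29483 and 28507 under the LPS cPLA_2_ WT and cPLA_2_ KO labels. *Ifi209* (GSMG0001192, chr1:173458425-173475494, plus strand) had 2343, 2331 and 2433 and 1759, 1971 and 1881 in nonconfined, 7103, 6914 and 6954 and 736, 679 and 602 in confined, and 15626, 19617 and 17947 and 19393, 16633 and 17438 in LPS libraries, in the same order of labels. For both genes confined cPLA_2_ WT libraries were above and confined cPLA_2_ KO libraries below every nonconfined library. *Ifi213* (GSMG0002787, chr1:173393849-173426842, minus strand) had 347, 383 and 346 in nonconfined cPLA_2_ WT and 227, 216 and 239 in nonconfined cPLA_2_ KO libraries, 965, 1029 and 964 in confined cPLA_2_ WT and 82.0, 58.6 and 60.1 in confined cPLA_2_ KO libraries, and 1819, 3091 and 2511 and 3099, 1943 and 2587 in the LPS libraries. *Ifi213* parted the same way, and its nonconfined cPLA_2_ KO libraries also lay below its nonconfined cPLA_2_ WT libraries. Confinement changed *Ifi211* by 2.79 in cPLA_2_ WT and -0.74 in cPLA_2_ KO cells, *Ifi209* by 1.56 and -1.48, and *Ifi213* by 1.46 and -1.76, with adjusted p from limma of at most 1.13e-07. *Ifi207* (GSMG0002788, chr1:173550996-173569375, minus strand) had 882, 889 and 859 in nonconfined cPLA_2_ WT, 613, 879.7 and 792 in nonconfined cPLA_2_ KO, 1507, 1705 and 1566 in confined cPLA_2_ WT and 585, 501 and 508 in confined cPLA_2_ KO libraries, and it had 2969.6, 2839 and 2801 and 2439.7, 2795 and 2463 in the LPS libraries. Its confined cPLA_2_ KO libraries were the lowest, and it rose by 0.86 in cPLA_2_ WT and fell by 0.51 on the log2 scale in cPLA_2_ KO DCs (adjusted p = 0.000187 from limma).

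*Ifi208* (GSMG0001194, chr1:173501231-173525959, plus strand) was near the limit of detection, with 1.52, 1.71 and 3.93 normalized counts in nonconfined cPLA_2_ WT, 0, 0 and 1.94 in nonconfined cPLA_2_ KO, 11.6, 10.3 and 7.11 in confined cPLA_2_ WT and 0 in each confined cPLA_2_ KO library. The LPS libraries had 11.3, 11.0 and 9.33 and 14.8, 11.4 and 2.47. Against a floor of 3 reads per library, which covers counting error only, confined cPLA_2_ WT DCs were at least 3.16-fold above confined cPLA_2_ KO DCs. Its rise with confinement in cPLA_2_ WT DCs was 1.70 (SE 0.69). Because *Ifi208* had to differ between groups, no p-value is given for it. The rise no longer passed the threshold with a pseudocount of 0.5 or with the same total per library. Nor did it pass without any of 5 libraries, nonconfined cPLA_2_ WT replicates 1 and 2 and confined cPLA_2_ WT replicates 1, 2 and 3. A difference for *Ifi208* between nonconfined and confined cPLA_2_ KO DCs was not detectable at this depth.

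A gene was called at an adjusted p under 0.05 and a log2 fold change beyond 1 in either direction. With confinement in cPLA_2_ WT DCs 6 of 10 members were called higher (5 of 9 without *Ifi208*, which had to differ) and 0 lower, against 11.4% and 7.62% of all tested genes, and by the adjusted p from limma alone 10 rose, against 28.2%. The median log2 fold change was 1.51 over the 10 members and 1.46 without *Ifi208*, beside -0.0055 over all genes. In cPLA_2_ KO DCs 4 of 10 were called lower and 0 higher, against 5.53% and 6.43% of all genes, and 7 fell by the adjusted p alone, against 23.4%. There the median was -0.69, or -0.74 without *Ifi208*, beside 0.010 over all genes. The interaction was called lower for 8 of 10 members and higher for 0, against 6.56% and 1.11% of all genes, with a median of -2.86 and of -2.92 without *Ifi208*. The members not called were *Aim2* and *Ifi208*. The counts of 0 in these comparisons, from limma, were also 0 with edgeR and with DESeq2, and at an unadjusted p under 0.05 from limma the counts were 0, 1 (*Aim2*) and 0. In confined cells 9 of 10 members (8 of 9 without *Ifi208*) were called lower when cPLA_2_ KO was set against cPLA_2_ WT, against 7.31% of all genes, with *Aim2* lower by the adjusted p alone (-0.31 (SE 0.054, limma adjusted p = 7.85e-05)). The directions with confinement and between the confined genotypes held under each scaling, while the same total per library moved the median of all genes to -0.23 for confinement in cPLA_2_ WT DCs, 0.24 for the interaction and 0.19 between confined genotypes. The comparisons share libraries, so their values stand side by side and are not independent.

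**Figure D2:**
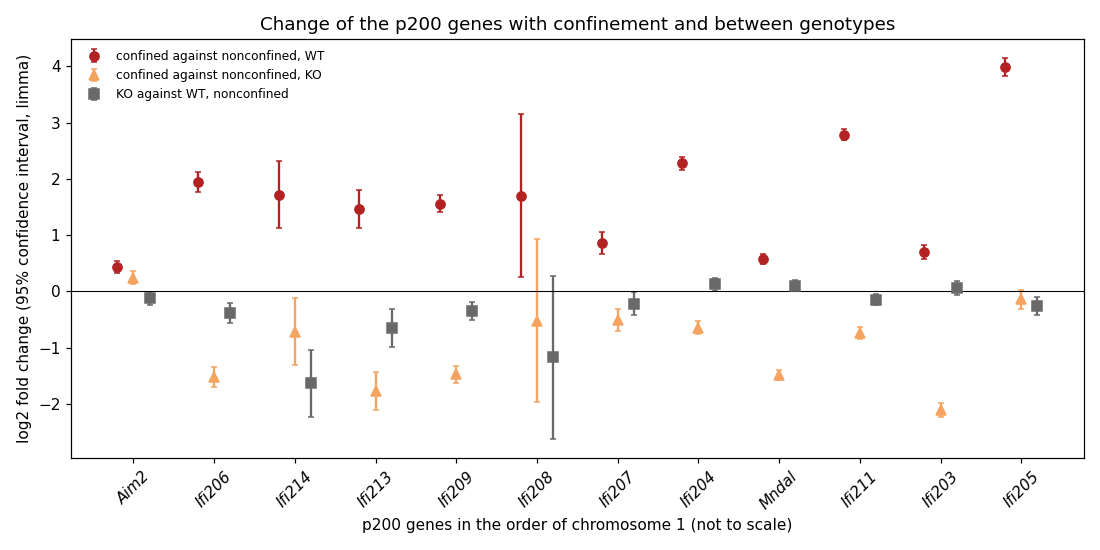
Log2 fold changes with 95% confidence intervals for 12 p200 genes in the order of the chromosome, for confinement in cPLA_2_ WT DCs, confinement in cPLA_2_ KO DCs and cPLA_2_ KO against cPLA_2_ WT in nonconfined DCs. *Ifi205* is at 3.99 for confinement in cPLA_2_ WT DCs and *Ifi203* at -2.11 for confinement in cPLA_2_ KO DCs, while *Aim2* is above 0 in both, a direction that each scaling kept.

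Before confinement the genotypes differed less. None of the 10 members was called in nonconfined cPLA_2_ KO against cPLA_2_ WT DCs with limma, edgeR or DESeq2, against 0.85% of all genes called higher and 0.302% lower, and 8 members had an unadjusted p under 0.05 from limma, 2 of them higher and 6 lower, against 22.4% of all genes in either direction. By the adjusted p alone 3 were lower, against 4.11%. These were *Ifi213*, at -0.66 (SE 0.16, limma adjusted p = 0.0149), *Ifi209*, at -0.34 (SE 0.076, limma adjusted p = 0.00717), and *Ifi205*, at -0.26 (SE 0.078, limma adjusted p = 0.0451). The libraries of *Ifi213* and *Ifi209* did not overlap between genotypes and those of *Ifi205* did. *Ifi213* missed the threshold without nonconfined cPLA_2_ WT replicate 2 (-0.61, adjusted p = 0.0671 from limma) or without nonconfined cPLA_2_ KO replicate 1 (-0.66, 0.0532), in a range of 0.00493 to 0.0671 over the alternatives. *Ifi205* missed it with edgeR (adjusted p = 0.0684), with no filter on low values (0.0785 with limma), with only the compared groups in the fit (0.246 with limma) and without cPLA_2_ WT replicate 2 (-0.15) or 3 (-0.27) or cPLA_2_ KO replicate 1 (-0.29) or 3 (-0.19), in a range of 0.0123 to 0.268. *Ifi211* (-0.14, adjusted p = 0.0747 from limma) missed the threshold but passed with the same total per library, with DESeq2 and without cPLA_2_ WT replicate 1 (-0.19), in a range of 0.0227 to 0.294. *Ifi207* (-0.22) passed only without cPLA_2_ KO replicate 2 (-0.33). With a library left out its value ran from -0.33 to -0.071, and its adjusted p was in a range of 0.0254 to 0.733 over the alternatives. For *Ifi203*, *Ifi204* and *Mndal* the differences were 0.061, 0.13 and 0.10, none past the threshold, with 95% confidence intervals of -0.067 to 0.19, 0.010 to 0.24 and 0.0096 to 0.20.

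LPS gave the highest levels of the family. In LPS against nonconfined libraries 9 of 10 members (8 of 9 without *Ifi208*) were called higher, against 15.6% of all genes, with a median of 2.65 and of 3.07 without *Ifi208*. The count was also 9 with only the 4 LPS libraries that have Y-linked reads, a choice made after seeing the data. The log2 fold changes ran from 5.83 for *Ifi205* (56.9-fold) and 4.47 for *Ifi211* down to 1.74 for *Ifi207* and 0.52 for *Aim2*. *Ifi205* and *Ifi211* were also the members that rose most with confinement in cPLA_2_ WT DCs. Between the LPS libraries labelled cPLA_2_ KO and cPLA_2_ WT 0 members and 0.0% of all genes were called with limma, as with edgeR and DESeq2, while at an unadjusted p under 0.05 no member passed with limma, and 890 genes passed with limma, 812 with edgeR and 831 with DESeq2. Because some LPS libraries are more alike across labels than within them, which the fit does not take up, these counts do not show that the labels are alike. The replicates without Y-linked reads, 2 under the cPLA_2_ WT and 1 under the cPLA_2_ KO label, had the highest *Ifi209* and *Ifi213* of the 6 LPS libraries. These 2 libraries also had the lowest sums of eosinophil markers, 23473 and 23262 against 31636 to 40025 in the other 4, and of macrophage markers, 30398 and 30989.9 against 35516 to 40095. They were the lowest 2 for markers of DCs, neutrophils and mast cells or basophils as well (DC sums of 550283 and 555407 against 582899 to 635830.0) and the highest 2 for plasmacytoid DC markers, led by *Bst2*, so the shift runs across most lists, and its part in the levels was not tested. Confined cPLA_2_ WT DCs stayed below LPS for 7 of 10 members, against 7.84% of all genes called lower, with a median of -1.33 and values from -1.72 for *Ifi205* to -1.25 for *Ifi204* among those called. *Aim2*, at -0.026 (95% confidence interval -0.12 to 0.072), did not pass. It turned to 0.26 with the same total per library, which passed (adjusted p = 5.57e-05 from limma), and to 0.046 with TMM scaling and 0.011 with DESeq2, which did not. Confined cPLA_2_ KO DCs were below LPS for 9 of 10 members called (8 of 9 without *Ifi208*), against 12.9% of all genes, from -6.10 for *Ifi205* to -2.35 for *Ifi207*. *Aim2*, at -0.34 (adjusted p = 1.83e-06 from limma), turned to 0.10 with the same total per library (adjusted p = 0.0497 from limma), past the threshold in both directions.

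The table holds 3 further p200 genes out of 10 other names looked for. *Ifi202b* (GSMG0002793, chr1:173790135-173810410, minus strand) encodes p202, which has HIN domains and no pyrin domain and opposes AIM2. It had no read in any nonconfined library, 60.9, 59.2 and 35.5 normalized counts in confined cPLA_2_ WT and 6.47, 6.40 and 1.82 in confined cPLA_2_ KO libraries, and 48.5, 37.5 and 53.2 and 37.1, 46.9 and 28.4 in the LPS libraries labelled cPLA_2_ WT and cPLA_2_ KO. Against a floor of 3 reads per library, confined cPLA_2_ WT DCs were at least 20.0-fold above nonconfined cPLA_2_ WT DCs and confined cPLA_2_ KO DCs, with few reads, at least 1.82-fold above nonconfined cPLA_2_ KO DCs. *Ifi202b* thus had reads in confined cPLA_2_ KO libraries too, but replicate 3, at 1.82, lay below its floor of 2.73. Like *Ifi208* it passed the filter only through confined cPLA_2_ WT and LPS libraries and had to differ between groups, so no p-value is given for it. *Ifi206* (GSMG0002785, chr1:173296051-173318884, minus strand) had 1288, 1289 and 1316 and 896, 1044 and 1039 in nonconfined cPLA_2_ WT and cPLA_2_ KO, and 5147, 4913 and 4974 and 379, 323 and 333 in confined cPLA_2_ WT and cPLA_2_ KO libraries. It rose by 1.95 in cPLA_2_ WT, fell by 1.52 on the log2 scale in cPLA_2_ KO DCs and was lower in nonconfined cPLA_2_ KO DCs (-0.39 (SE 0.086, limma adjusted p = 0.00683)), a difference that missed the threshold without cPLA_2_ KO replicate 1 (-0.32, adjusted p = 0.0551 from limma, in a range of 0.000626 to 0.0551 over the alternatives). *Ifi214* (GSMG0002786, chr1:173348877-173363526, minus strand) had 16.0, 20.5 and 29.5 and 8.62, 4.65 and 5.82 in nonconfined and 64.7, 78.0 and 75.8 and 4.32, 3.20 and 2.73 in confined cPLA_2_ WT and cPLA_2_ KO libraries. It was lower in nonconfined cPLA_2_ KO DCs (-1.64 (SE 0.29, limma adjusted p = 0.00108)), with no overlap, and rose by 1.72 with confinement in cPLA_2_ WT DCs. With confinement in cPLA_2_ KO DCs it was at -0.72 (SE 0.29, limma adjusted p = 0.0463), which passed in 7 of 17 alternatives, with adjusted p in a range of 0.0242 to 0.28, and not without nonconfined cPLA_2_ KO replicate 1 (-0.51) or 3 (-0.76) or confined cPLA_2_ KO replicate 2 (-0.69) or 3 (-0.61).

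The 13 genes lie next to each other on chromosome 1, within chr1:173248170-173859321 of GRCm39, a span of 611.2 kb that is 23.4 Mb from *Pla2g4a*. In the order of the chromosome they are *Aim2*, *Ifi206*, *Ifi214*, *Ifi213*, *Ifi209*, *Ifi208*, *Ifi207*, *Ifi204*, *Mndal*, *Ifi211*, *Ifi203*, *Ifi202b* and *Ifi205*. The p200 genes that were lower in nonconfined cPLA_2_ KO DCs by the adjusted p, *Ifi206*, *Ifi214*, *Ifi213* and *Ifi209*, are consecutive in this order, with *Ifi205* at the far end. The consecutive genes share sequence in part, as given below, so they are not fully separate observations. Between *Ifi209* and *Ifi205*, *Ifi208* (-1.17), *Ifi207* (-0.22) and *Ifi211* (-0.14) were lower and *Ifi204* (0.13), *Mndal* (0.10) and *Ifi203* (0.061) higher, none past the threshold. *Ifi202b* had no read in these libraries, and *Aim2*, at the other end, was at -0.13, not past the threshold. Because this stretch is on the chromosome of the deleted gene, sequence carried along with the deleted allele and the deletion itself cannot be told apart here. The study's methods state that the floxed allele was made with CRISPR–Cas9, that breeders had been backcrossed to C57BL/6 and that controls were littermates or matched in age. Within 500 kb of the cluster 18 of 46 genes were tested, most of them of the family. Of the others, a gene without symbol (GSMG0001193) inside *Ifi209* changed by 1.92 with confinement in cPLA_2_ WT and -0.79 in cPLA_2_ KO cells and was lower in nonconfined cPLA_2_ KO DCs by -1.52, and reads of overlapping genes may not be separable. *Fcer1a* changed by -1.95 and -1.12 with confinement in these genotypes, *Olfr433* by -1.12 and -3.25, and the values of *Cadm3*, 0.0057 and -1.04, were not past the threshold. None of these 3 both rose in cPLA_2_ WT and fell in cPLA_2_ KO cells past the threshold.

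**Figure D3:**
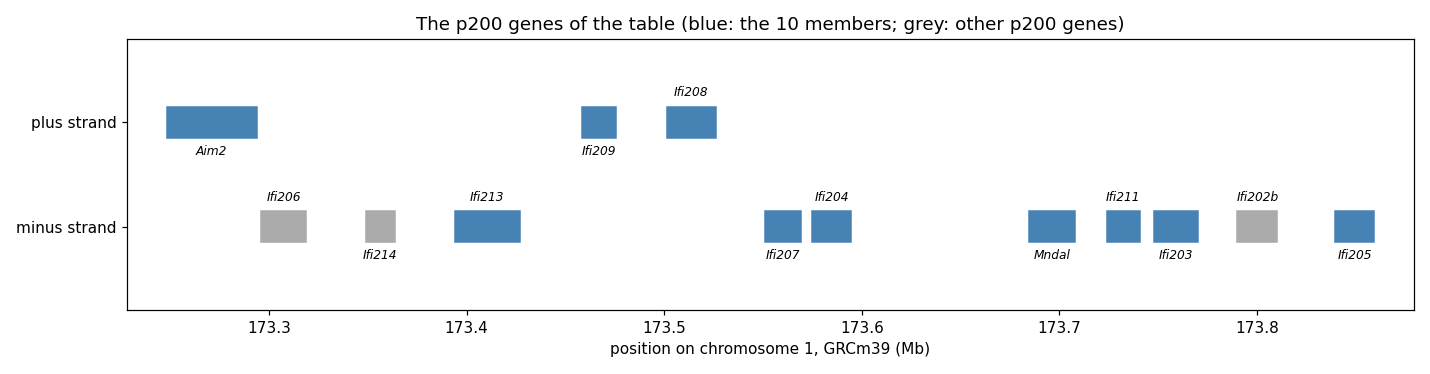
Positions of the p200 genes on chromosome 1 of GRCm39, to scale, with members in blue and other genes in grey. *Aim2* lies at the lower end of the cluster and *Ifi205* at the upper end.

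Because the genes are paralogs, reads can fall on stretches that members share. Of the windows of 100 bases in the canonical transcript, 56.9% occur unchanged in another gene for *Ifi211*, 37.8% for *Ifi205*, 17.4% for *Ifi209*, 15.9% for *Ifi204*, 12.1% for *Mndal*, 8.22% for *Ifi208*, 7.44% for *Ifi203*, 5.60% for *Ifi213*, 0.795% for *Ifi207* and 0 for *Aim2*. By this measure the counts of *Ifi211* and *Ifi205* are the most open to reads of other genes. Of the other p200 genes, *Ifi214* had 19.3% of its windows shared, all with *Ifi209*, and *Ifi202b* had 0. *Ifi206* had 12.1% shared, with *Ifi213*, *Ifi208* and *Gm18752*. Reads of *Ifi206*, *Ifi214*, *Ifi213* and *Ifi209*, which were lower in nonconfined cPLA_2_ KO DCs, may thus not be fully separable. Of the members with the fewest shared windows, *Ifi207* rose in cPLA_2_ WT and fell in cPLA_2_ KO DCs and *Aim2* rose in both.

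Promoters, from 250 bases before to 50 bases after the start of a gene, were taken from RefSeq for GRCm38.p6 and found for 12 of the 13 p200 genes, all but the member *Ifi204*, which was not searched. They were searched on both strands for GAAANNGAA, which lies within the core of interferon-stimulated response elements. It was present in 9 of these 12 genes, 7 of them members, and in 9.761% of 27025 genes. The overlapping AAATCGAAA occurred in 38 genes (0.141%), of which 8 were p200 genes. Both were chosen after the sequences had been seen and stand in for longer forms searched first. With 1 more A at its end GAAANNGAA was in 9 of the 12 genes and in 3.993% of all genes. GGGACTTTC, part of an NF-κB site whose longer form was searched first and matched none of these genes, was in 1 of the 12, *Aim2*, and in 0.403% of all genes. TTCNNNGAA, the core of GAS elements, was found only in *Ifi202b* of the 12, beside 9.554% of all genes. A match describes these letters and is not a binding site. The windows below show how alike the members are around the match, which is in capitals, and *Ifi209* has only AAATCGAAA. They are from chr1:173599320-173599359 (*Ifi213*), chr1:173741825-173741864 (*Ifi207*), chr1:173880198-173880237 (*Mndal*), chr1:173913058-173913097 (*Ifi211*), chr1:173942502-173942541 (*Ifi203*) and chr1:174031864-174031903 (*Ifi205*) on the minus strand and chr1:173673593-173673632 (*Ifi208*) and chr1:173630767-173630806 (*Ifi209*) on the plus strand.
Ifi213: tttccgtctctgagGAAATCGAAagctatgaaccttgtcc
Ifi208: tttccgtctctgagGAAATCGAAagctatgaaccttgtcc
Ifi209: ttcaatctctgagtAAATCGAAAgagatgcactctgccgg
Ifi207: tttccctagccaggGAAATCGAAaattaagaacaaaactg
Mndal: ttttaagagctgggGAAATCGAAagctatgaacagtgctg
Ifi203: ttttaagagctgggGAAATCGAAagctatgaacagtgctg
Ifi211: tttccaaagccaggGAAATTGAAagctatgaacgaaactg
Ifi205: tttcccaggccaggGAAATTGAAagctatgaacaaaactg

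*Ifi213* and *Ifi208* share the same window, as do *Mndal* and *Ifi203*, while *Ifi211* and *Ifi205* differ from the others inside the match. The promoter of *Aim2* holds neither GAAANNGAA nor AAATCGAAA. Both are also missing from the promoter of *Ifi202b*. Whether these letters go with the size of the change was not tested. The *Aim2* promoter is shown whole for comparison, from chr1:173420354-173420653 of GRCm38.p6 on the plus strand, with GGGACTTTC in capitals.
Aim2: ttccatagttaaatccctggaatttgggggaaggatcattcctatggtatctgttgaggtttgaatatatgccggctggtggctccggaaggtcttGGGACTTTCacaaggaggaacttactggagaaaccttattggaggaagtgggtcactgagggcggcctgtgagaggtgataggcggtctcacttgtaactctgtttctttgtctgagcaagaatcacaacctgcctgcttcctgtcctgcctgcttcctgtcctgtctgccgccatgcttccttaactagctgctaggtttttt

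Across the 18 libraries the levels of the members moved together, as a description in which libraries of a group share their treatment. Pearson correlations between pairs of members on the log2 scale ran from 0.657 to 0.998 with a median of 0.939, and *Aim2* had the lowest correlation with the members' mean, 0.857. Among genes outside the family, *Ifih1* (0.997), *Gbp5*, *Gm4951*, *Parp14*, *Eif2ak2*, *Isg15*, *Slc25a22*, *Ifit3*, *Gbp2* and *Zup1* (0.992) were most like that mean. *Ifi204* was most like *Ifi211* (0.998), *Ifi213* most like *Ifi209* (0.995) and *Aim2* most like *Ppp2r2a* (0.988). *Ifi204* and *Ifi211* share windows of 100 bases, and the part of shared reads in their likeness was not tested.

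The other genes of these pathways were summarised by counts of calls, with *Usp18*, *Ifi35* and *Irf3* each in more than 1 list. Of 33 interferon-stimulated reference genes tested, confinement called 22 higher and 0 lower in cPLA_2_ WT DCs (median 1.46) and 0 higher and 24 lower in cPLA_2_ KO DCs (median -1.30), and the interaction 0 higher and 31 lower. Of all genes 11.4% were called higher and 7.62% lower with confinement in cPLA_2_ WT, 6.43% and 5.53% with confinement of cPLA_2_ KO cells and 1.11% and 6.56% for the interaction. The family's pattern was thus shared by this list. Of 18 genes of interferon signalling, 8 higher and 0 lower were called in cPLA_2_ WT (median 0.99) and 1 higher and 3 lower in cPLA_2_ KO DCs (median -0.19), with *Ifnb1*, encoding interferon-β, at 4.19 and 1.88 and *Socs3* at 3.27 and 0.41. Both *Ifnb1* values were above 0, and the value in cPLA_2_ KO DCs was the smaller. Their part in the levels of the p200 genes was not tested. Of 17 genes of the STING pathway, 3 higher and 0 lower were called in cPLA_2_ WT (median 0.33) and 1 higher and 2 lower in cPLA_2_ KO DCs (median -0.22), with *Trex1* at 1.39 and -1.05 and *Sting1* at -0.75 and -0.63. These calls with confinement are few, and no result about that pathway is drawn from them. By the adjusted p from limma alone 3 rose and 11 fell in cPLA_2_ KO DCs, the falls against 23.4% of all genes. The interaction was called higher for 0 and lower for 4 of the 17, against 1.11% and 6.56% of all genes. For the 18 genes of interferon signalling it was called higher for 0 and lower for 10. Of 13 partners of the AIM2 inflammasome, 5 higher and 0 lower were called in cPLA_2_ WT (median 0.50) and 2 higher and 0 lower in cPLA_2_ KO DCs (median 0.065), with *Il1b* at 8.45 and 3.91 and *Pycard*, encoding ASC, at -0.99 and -0.66. The interaction was called higher for 0 and lower for 4 of these 13.

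Marker lists were summed in each library to set the family beside the cells of the culture. The 9 DC markers, led by *Cd74*, summed on average to 427730.0, 510118, 393487, 357674, 589671 and 593288 normalized counts in nonconfined cPLA_2_ WT, nonconfined cPLA_2_ KO, confined cPLA_2_ WT, confined cPLA_2_ KO, LPS cPLA_2_ WT and LPS cPLA_2_ KO libraries, so DC transcripts were present in every group, although *Cd209a* went down to 6.17 in an LPS library. The sum was lower in confined than in nonconfined libraries of each genotype, and *Cd74* averaged 274164 in nonconfined and 198224 in confined cPLA_2_ KO libraries. Confinement called 3 of 9 markers lower in cPLA_2_ WT and 3 in cPLA_2_ KO cells, each time *Cd209a* (-2.62 and -2.40), *Flt3* (-1.53 and -2.17) and *Dpp4* (-1.93 and -1.90), against 7.62% and 5.53% of all genes, while *Ccr7* was called higher in cPLA_2_ WT cells only. By the adjusted p from limma alone 7 of 9 were lower and 1 higher in cPLA_2_ WT cells, where 5075 of 17875 genes were lower. In cPLA_2_ KO cells all 9 were lower, against 23.4% of all genes. The part of these falls in the result was not tested. The 10 neutrophil markers, led by *S100a9*, summed to 239482, 244596 and 242984 in nonconfined cPLA_2_ WT, 370553, 333143 and 358369 in nonconfined cPLA_2_ KO, 154231, 146984 and 144795 in confined cPLA_2_ WT and 333565, 346504 and 330558 in confined cPLA_2_ KO libraries. In the LPS libraries they summed to between 277388 and 312901. They were thus lowest in confined cPLA_2_ WT libraries, and their part in the result was not tested. The sums of the LPS libraries lie above those of nonconfined cPLA_2_ WT libraries through *S100a8*, *S100a9*, *Ngp* and *Camp*, while *Elane*, *Mpo*, *Ctsg* and *Retnlg* averaged 968, 2353, 712 and 50.8 in nonconfined cPLA_2_ WT and 589.7, 1320.0, 564 and 29.6 in LPS cPLA_2_ WT libraries. In LPS against nonconfined libraries 4 of the 10 were higher and 5 lower at a limma adjusted p under 0.05, against 37.2% and 34.3% of all genes, with a median of -0.39, so these markers did not move in 1 direction with LPS. The 6 eosinophil markers, led by *Prg2*, summed to 28351, 28102 and 27985 and 68025, 63640.2 and 65566 in nonconfined cPLA_2_ WT and cPLA_2_ KO libraries and to 7654, 7143 and 7070.3 and 16529.7, 16005 and 16942 in confined cPLA_2_ WT and cPLA_2_ KO libraries. The 7 markers of mast cells or basophils, led by *Cpa3*, averaged 9162, 13648, 3418, 6116, 8942 and 9178 in the 6 groups in the order above. Nonconfined and confined cPLA_2_ KO libraries were above cPLA_2_ WT libraries in both lists, confined libraries were below nonconfined libraries of their genotype, and their part in the result was not tested. Not every marker followed its sum, since *Siglecf* averaged 1402 and 943 in nonconfined and 1448 and 1103 in confined cPLA_2_ WT and cPLA_2_ KO libraries and *Ccr3* 85.4, 229, 189.7 and 61.3. The 9 macrophage markers, led by *Cd68* and with *Cd163* at most at 2.37, averaged 29866, 36024, 30399, 35182, 35336 and 35348. The 6 markers of plasmacytoid DCs averaged 10964, 11387, 11587, 7506, 25419.7 and 24690.5, but most of this was *Bst2*, which is itself induced by interferon and is also in the interferon list, while *Siglech* did not exceed 33.0 in any library. Markers of B cells (4 genes), T or NK cells (5) and erythroid cells (4) averaged at most 91.4, 187 and 26.2 in any group, low beside the other lists.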

How the data were processed

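The deposited table gives a signal per gene that the authors made by mapping stranded poly(A) reads to mm39 (GRCm39), counting on Mouse FAST DB genes and dividing counts by a DESeq2 size factor per library; the submitters' notes name STAR 2.7.5a, featureCounts 1.5.0 and R 3.5.3. Of all values, 100% became whole reads (tolerance 0.0001) after multiplication by a factor per library, 33027230 to 61300021 reads, median 40950397.5. Of value columns, 0 could not be assigned to a sample. The labels' protocol text mentions LPS for all samples; titles and treatment entries were followed.

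Values were tested as log2(normalized count + 1) with limma 3.58.1 (trend) in R 4.3.3, fitting 6 group means, for genes that reached 10 normalized counts in 3 or more libraries, and adjusted by Benjamini-Hochberg over all genes. Alternatives were pseudocounts of 0.5 and 5, no filter and a filter of 100, the same total per library, TMM, edgeR 4.0.16 and DESeq2 1.42.0 on whole reads, only the groups compared, a term for the replicate number, a fold of 1.5 at an unadjusted p of 0.05, each library left out and, chosen after seeing the data, only the 4 LPS libraries with at least 50 summed Y-linked counts. Within groups, 18 pairs of libraries differed by more than sampling noise. The genes named are the members, other p200 names, neighbours within 500 kb (1 is not reported here), the 10 genes most like the members and the 3 most like each member, and examples from the lists given in the report, with *Pycard* and *Sting1* as references. The members and lists were chosen with earlier results of these data known, and so were the motifs. The pipeline was tested on simulated data. Figures were drawn with matplotlib 3.10.9.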

Additional observations from a re-analysis of the deposited data

Results flagged for a closer look

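The change with confinement differed between genotypes, by the interaction in limma, for 8 members. The interaction was -3.22 for *Ifi213*, -3.04 for *Ifi209*, -1.36 for *Ifi207*, -2.92 for *Ifi204*, -2.07 for *Mndal*, -3.53 for *Ifi211*, -2.81 for *Ifi203* and -4.13 for *Ifi205*. For all 8 the confined cPLA_2_ WT libraries were above the nonconfined cPLA_2_ WT libraries. In cPLA_2_ KO DCs 7 of them fell and *Ifi205* did not pass the threshold. These values were negative in every alternative computed, including each scaling and each library left out.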

How the results depend on the processing

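Of 2416 alternative values for 125 single-gene results, 2329 kept their direction and side of the threshold, 47 no longer passed, 10 newly passed and 30 changed sign, 27 of these with neither value past the threshold. Counts of members called stayed within 1.5 times, except that nonconfined cPLA_2_ KO against cPLA_2_ WT DCs went from 0 to 1 called lower with a fold of 1.5 at an unadjusted p of 0.05.

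With the same total per library, *Aim2* reversed to 0.26 for confined cPLA_2_ WT against LPS, to 0.10 for confined cPLA_2_ KO against LPS and to 0.00091 for the interaction, and *Pla2g4a* to 0.28 in confined cPLA_2_ KO DCs against LPS. Of these, 0.26, 0.10 and 0.28 were past the threshold by the adjusted p from limma. In confined cPLA_2_ WT DCs against LPS *Aim2* was 0.046 with TMM, 0.045 with edgeR and 0.011 with DESeq2, and *Ifi208* -0.019 with DESeq2 and -0.28 to 0.27 without a library. For *Ifi208* with confinement in cPLA_2_ KO DCs the range without a library was -0.78 to 0. Between LPS labels, with a library left out, the ranges were -0.022 to 0.038 for *Ifi204*, -0.81 to 0.29 for *Ifi208*, -0.077 to 0.087 for *Ifi209*, -0.16 to 0.23 for *Ifi213*, -0.024 to 0.056 for *Aim2*, -0.071 to 0.11 for *Ifi206* and -0.18 to 0.099 for *Ifi214*. *Ifi214* was -0.0013 with edgeR and -0.0027 with DESeq2, and with only the LPS libraries with Y-linked reads *Ifi214* was -0.038, *Aim2* -0.0019 and *Ifi206* -0.019. The cause was not tested.

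The same total per library moved the share of higher genes among those called from 59.9% to 43.0% for confinement in cPLA_2_ WT, 14.4% to 33.5% for the interaction, 27.6% to 41.2% between confined genotypes, 53.8% to 28.3% for LPS, 47.0% to 68.8% for confined cPLA_2_ WT and 45.3% to 71.8% for confined cPLA_2_ KO DCs against LPS, the last 3 with all-gene medians of -0.46, 0.27 and 0.46. All genes called, with the main thresholds, a filter of 100 and a fold of 1.5 at an unadjusted p of 0.05, were 3400, 1999 and 6167 for confinement in cPLA_2_ WT, 2139, 1087 and 4227 for confinement in cPLA_2_ KO, 1371, 941 and 2956 for the interaction, 206, 96 and 1000 for nonconfined genotypes, 1805, 1061 and 3475 for confined genotypes, 5188, 3148 and 8238 for LPS, 2647, 1364 and 4978 for confined cPLA_2_ WT against LPS and 4227, 2416 and 6970 for confined cPLA_2_ KO against LPS. Without nonconfined cPLA_2_ WT replicate 2 or cPLA_2_ KO replicate 1 the nonconfined genotypes had 125.

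In no comparison did all 3 pairs of libraries with the same replicate number have a residual correlation over 0.1, the level asked of a pairing, so the numbers were not taken as pairs. Between confined cPLA_2_ WT and cPLA_2_ KO the correlations were 0.338, 0.208 and 0.04, and 5 of 6 libraries correlated best with their own number, a hint from the data only. With a replicate block 5 members were called higher with confinement in cPLA_2_ WT DCs, against 6 without it, since *Ifi208* (1.70), which had to differ, no longer passed. Nor did *Ifi214* with confinement in cPLA_2_ KO DCs (-0.72, adjusted p = 0.059 from limma, in a range of 0.0242 to 0.28). Few reads limit the precision for *Ifi208*, *Ifi202b* and *Ifi214*.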
